A study of Aptenodytes patagonicus with 7 samples.

Results

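The analysis concerned 33 peroxisomal genes, measured on chicken arrays in flight muscle (pectoralis) biopsies of juvenile king penguins (*Aptenodytes patagonicus*). The members were taken by gene symbol from the platform annotation of the array. They were the peroxins (PEX genes), the PXMP membrane proteins, the acyl-CoA oxidases, the ABCD transporters and a set of named peroxisomal enzymes. These genes had 62 of the 36897 probe sets, and each gene was represented by its probe set with the highest mean over the 7 birds, which gave 33 of the 12920 genes with a probe set of a single symbol. The rule for the symbols used no values of the groups, but it was set with earlier results of these data known. A mean over all 7 birds can favour a probe set that is bright in 1 group. In PXMP4, CRAT and DDO the probe set analysed was the brighter one in the NI mean but not in the SA mean.

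The SA (sea-acclimated) group held 3 juveniles, 2 females and 1 male, already adapted to living at sea, and the NI (never-immersed) group 4 juveniles, 3 females and 1 male, taken while still living on land. All birds were under isoflurane when the biopsy was cut out. Each bird was a separate animal with its own array, and no pair of arrays was identical. Acclimation and anything else that separated the groups cannot be told apart.

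Peroxisomes are small organelles that shorten very long and branched fatty acids, make the first intermediates of ether phospholipids and both produce and break down hydrogen peroxide. Their matrix proteins are made in the cytosol, bound there by the receptors PEX5 or PEX7 and carried through a membrane complex of other peroxins. Fatty acids shortened in the organelle leave it as carnitine esters and are then burnt in mitochondria, so that in muscle the organelle feeds the oxidation of fat.

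In each probe set the authors kept 1 probe, and the log2 intensities of these probes were quantile normalized between arrays, with no background subtraction described. The values ranged between 6.44 and 15.27, with array medians between 8.58 and 8.59. A probe designed on chicken binds its penguin transcript with unknown strength, so that levels of different genes cannot be ranked. The difference of a gene, SA minus NI, was estimated with limma on all 36897 probe sets, and a gene was called at an adjusted p (Benjamini-Hochberg over all probe sets) under 0.10, the false discovery rate of the study. Signs follow the sample labels, whereas the study's text assigns its totals of higher and lower genes the other way round. Of the 33 genes, 7 lay among the dimmest 25% of all probe sets, below a mean of 7.84, and all of them were kept. Of the 12920 genes, each by its brightest probe set, 1506 lay below that mean.

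The 9 markers of muscle fibres had mean log2 intensities between 8.45 (PVALB, parvalbumin) and 15.27 (ACTA1, the skeletal actin, whose value is the maximum that quantile normalization gives every array). Some markers of other cell types moved with the groups. The summed intensity of 8 fibroblast markers was 3177 to 7432 in SA and 9542 to 19624 in NI birds. Of these 8, 2 were called lower (COL1A1 and COL1A2). DCN, FBN1 and COL3A1 had log2 differences between -2.23 and -1.42 without passing the test. PDGFRA, LUM and POSTN were dim, with mean log2 intensities between 7.22 and 7.75, and their log2 differences lay between -0.21 and 0.04. The sum of 8 adipocyte markers was 12427 to 13807 in SA and 8481 to 11502 in NI birds, but only RBP7 was called higher (log2 difference 1.13). FABP4, CIDEA and CIDEC lay between 0.02 and 0.28, and CD36, ADIPOQ, LPL and PLIN1 between -0.34 and -0.12. The median of the 8 was -0.05. For 9 fibre markers the sums were 157687 to 166997 in SA and 170148 to 172919 in NI birds, with TNNC2 called lower. Of 2 erythroid and 3 nerve markers 1 each was called lower, and of 6 endothelial, 6 leukocyte, 4 smooth muscle and 4 liver markers none passed. In a whole biopsy, fewer cells of a type and less RNA per cell cannot be told apart, and the part of these shifts in the peroxisomal differences was not tested.

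By the probe sets analysed, LONP2 was higher and PXMP4 was lower in SA than in NI birds. The other 31 of the 33 genes did not pass the test. The PXMP4 probe set was the brighter one only through the NI group, and its other one had a log2 difference of 0.02. The 2 other probe sets of LONP2 lay at 0.15 and, in a dim one, at -0.52. Among the brightest probe sets of all 12920 genes, 0.58% were called higher and 0.967% lower, and among all probe sets 0.417% and 0.65%. A single member in each direction is too small a number to set against these shares. The median log2 difference of the 33 genes was 0.09 and that of the 12920 genes 0.00, and without NI bird 3 the median of the 33 was -0.053. Of the 33, 18 had a positive and 15 a negative sign, and in 19 the size of the log2 difference was under 0.25. In 8 it was over 0.5, 24.2% of the members, beside 7.45% of the 12920 genes. At an unadjusted p under 0.05 from limma, 4 genes were higher (LONP2, GNPAT, PHYH and CROT) and 3 lower (PXMP4, AMACR and PEX7), 21.2% of the members, beside 12.4% of the 12920 genes. The spread between birds was also wider in the members, with a median SD of 0.216 in SA and 0.229 in NI, against 0.178 in both groups over the 12920 genes.

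**Figure D1:**
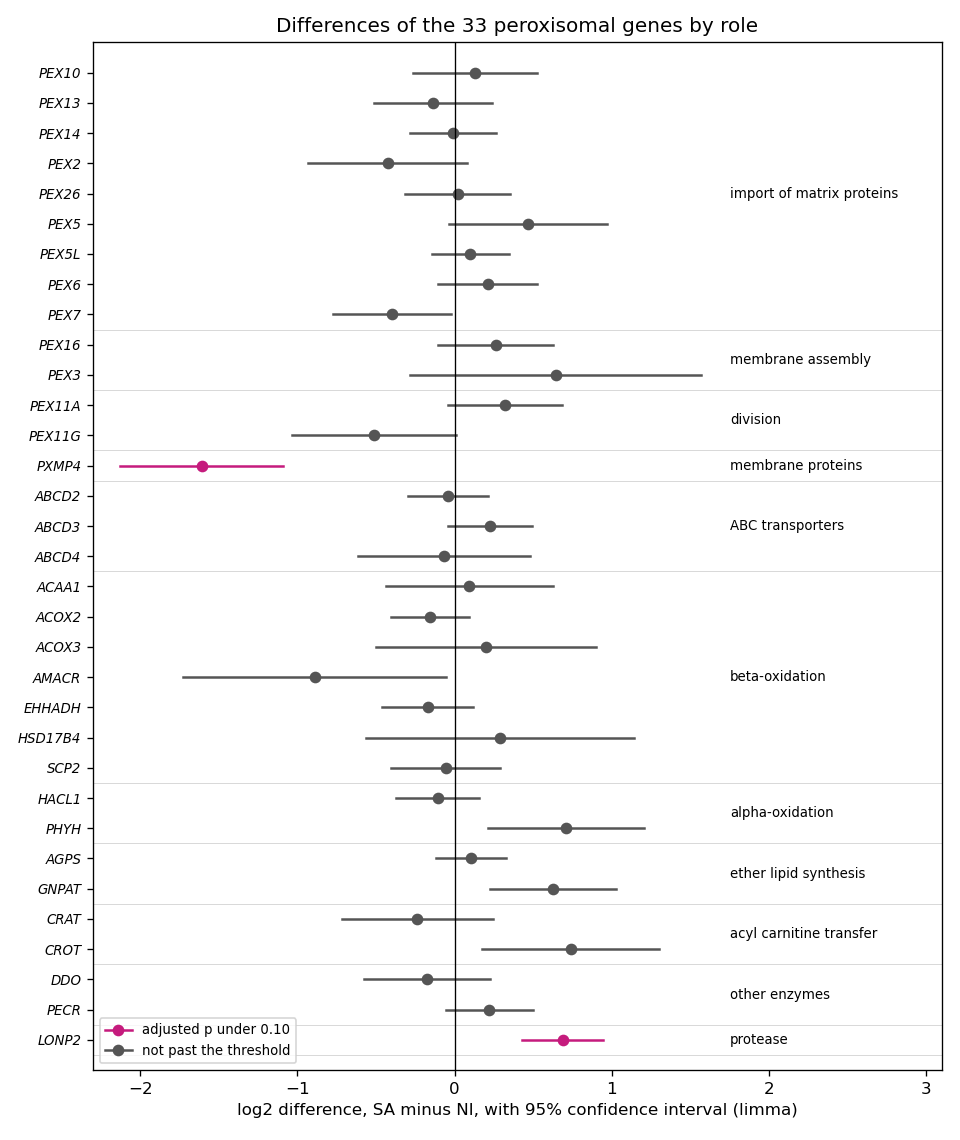
Log2 difference of each of the 33 peroxisomal genes (x axis, SA minus NI, points) with its 95% confidence interval from limma (lines), listed by role from top to bottom. LONP2 at 0.69 and PXMP4 at -1.61, in pink, are past an adjusted p of 0.10, and in 25 of the 33 genes the whole interval lies within 1 log2 unit of 0.

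LONP2 is the Lon protease of the peroxisome matrix, which removes damaged matrix proteins. Its brightest probe set gave log2 intensities of 11.24, 11.00 and 11.31 in SA birds 1 to 3, and of 10.51, 10.47, 10.54 and 10.47 in NI birds 1 to 4. The lowest SA bird stood well above the highest NI bird, and the NI birds lay unusually close together. The means were 11.18 ± 0.162 (SD, n = 3) in SA and 10.50 ± 0.0367 (SD, n = 4) in NI, a log2 difference of 0.69 (standard error 0.11, 95% confidence interval 0.43 to 0.94, limma adjusted p = 0.0402) or 1.61-fold. Permuting the birds over all 35 splits (exact, two-sided) gave p = 0.0286, the smallest p that 3 birds against 4 allow. The study picked LONP2 for qPCR from its own array calls, so that this call is no independent evidence.

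The call of LONP2 depended on single birds, while the difference itself changed little. Without 1 bird the log2 difference was between 0.62 and 0.78, and it passed the threshold in 3 of the 7 such fits. It was lost without NI bird 1 (limma adjusted p = 0.111), NI bird 2 (0.129), NI bird 4 (0.102) and SA bird 3 (0.151).

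The LONP2 primers of the study's qPCR are shown to compare the chicken and the penguin pair. Where they lie on the transcript, or relative to the probe sets, was not checked. One pair was designed on the chicken sequence. The penguin pair was designed after the PCR products had been sequenced. Bases that it shares with the chicken pair can thus come from the chicken primers and do not show conserved sequence. Capitals mark the longest run that a primer shares with one of the other pair. The runs have 20 and 15 bases, so both pairs frame nearly the same stretch of the transcript, and the names of the ends are exchanged between the pairs.
LONP2, chicken, listed as 5′: CGCAGCAATGCAAAGAGATA
LONP2, chicken, listed as 3′: gcagaTGGTCCGTCTTTTGT
LONP2, penguin, listed as 5′: TGGTCCGTCTTTTGTgacagctcc
LONP2, penguin, listed as 3′: CGCAGCAATGCAAAGAGATAtcagc

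PXMP4 is an integral protein of the peroxisomal membrane, with 2 probe sets. The one analysed had the higher mean over the 7 birds only through the NI group, since in every SA bird the other was brighter, and that other one showed a log2 difference of 0.02. The analysed probe set gave log2 intensities of 9.33, 8.68 and 9.42 in SA birds 1 to 3, and of 10.97, 10.73, 10.26 and 11.05 in NI birds 1 to 4. Every SA bird was lower than every NI bird. The means were 9.14 ± 0.404 (SD, n = 3) in SA and 10.75 ± 0.355 (SD, n = 4) in NI, a log2 difference of -1.61 (standard error 0.23, 95% confidence interval -2.13 to -1.09, limma adjusted p = 0.0275), or 3.05-fold lower in SA. The exact two-sided permutation test gave p = 0.0286. Because the NI values helped to pick this probe set, neither p is free of that choice. Without 1 bird the log2 difference was between -1.77 and -1.38, and the call was lost only without NI bird 2 (limma adjusted p = 0.1004).

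**Figure D2:**
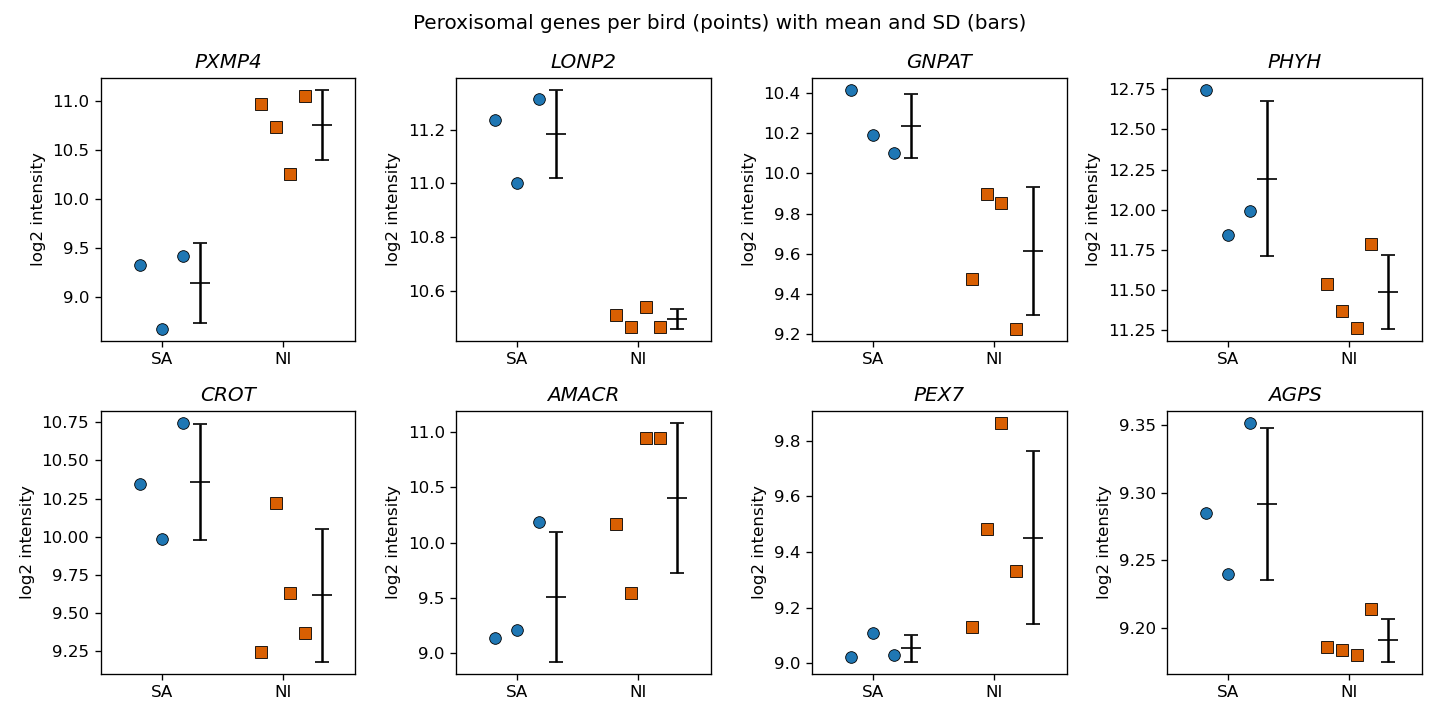
Log2 intensity (y axis, a scale of its own in each panel) of the 7 peroxisomal genes with the smallest p and of AGPS, in the 3 SA birds (blue circles) and 4 NI birds (orange squares), with the mean and SD of each group as bars. LONP2 lies at 11.00 to 11.31 in SA and 10.47 to 10.54 in NI birds, whereas the groups overlap in CROT and AMACR.

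Besides these, 4 genes had no overlap between the groups without passing the test. No SA bird overlapped an NI bird in 4 genes that lay higher in SA (LONP2, PHYH, GNPAT and AGPS, 12.1% of the members) and in 2 that lay lower (PXMP4 and PEX7, 6.06%), against 5.6% and 5.93% of the 12920 genes.

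The import of matrix proteins was represented by 9 genes, none of which passed the test, with log2 differences between -0.43 and 0.47. PEX7 is the receptor of the rarer, N-terminal targeting signal. Its log2 intensities were 9.02, 9.11 and 9.03 in SA birds, against 9.13, 9.48, 9.86 and 9.33 in NI birds. The SA birds lay just under the lowest NI bird, and the NI birds spread widely. The log2 difference was -0.40 (limma adjusted p = 0.434, standard error 0.17). PEX5, the receptor of the common C-terminal signal, lay at 7.66, 7.91 and 8.43 in SA and at 7.16, 7.97, 7.48 and 7.52 in NI birds, a log2 difference of 0.47 (limma adjusted p = 0.519) in overlapping groups.

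PEX2 and PEX10 are subunits of the ubiquitin ligase that recycles PEX5. PEX2 had a log2 difference of -0.43 (95% confidence interval -0.93 to 0.08) and PEX10 of 0.13. PEX13 and PEX14, which dock the loaded receptor at the membrane, lay at -0.14 and -0.01. PEX6, an ATPase that pulls the receptor out again, and PEX26, its membrane anchor, lay at 0.21 and 0.02, and the PEX5-related gene PEX5L at 0.10. PEX5, PEX5L, PEX13 and PEX26 were among these dimmest probe sets. The 95% confidence intervals of all 9 genes of import lay within 1 log2 unit of 0.

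PEX3 and PEX16, which insert proteins into the peroxisomal membrane, were higher in the SA mean by the probe sets analysed, without passing the test. PEX3 lay at 9.77, 11.39 and 11.36 in SA and at 9.54, 10.57, 10.68 and 10.01 in NI birds. SA birds 2 and 3 were above all other birds, and SA bird 1 was lower than 3 of the 4 NI birds. The log2 difference was 0.64 with a 95% confidence interval of -0.29 to 1.57. PEX16 had a log2 difference of 0.26 by its brightest probe set (limma adjusted p = 0.667). Its 4 other probe sets lay between -0.34 and 0.16, and 3 of them had the sign of the brightest. The one at -0.34 had an unadjusted p of 0.0243 (limma, adjusted p = 0.360).

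The PEX11 proteins elongate and divide the organelle. PEX11G lay at 12.13, 12.97 and 13.23 in SA and at 13.40, 13.33, 13.09 and 13.34 in NI birds, a log2 difference of -0.51 (limma adjusted p = 0.486, standard error 0.23). SA bird 1 was the lowest of all birds and SA bird 3 lay within the NI range. The other probe set of PEX11G had a log2 difference of -0.01 (limma adjusted p = 0.984), with overlapping groups. PEX11A, a dim probe set, had a log2 difference of 0.32 (limma adjusted p = 0.553).

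The ABC transporters bring acyl-CoA into the organelle. ABCD3, which takes branched and dicarboxylic acids, had a log2 difference of 0.22 (95% confidence interval -0.04 to 0.49). ABCD2, a carrier of very long chains, lay at -0.04. ABCD4, which serves vitamin B12 transport in lysosomes in humans despite its family name, lay at -0.07. All 3 overlapped between the groups.

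The 7 genes of beta-oxidation lay between -0.89 and 0.29, and none passed the test. AMACR, the racemase that prepares branched acyl-CoA for oxidation, had the largest difference among them. Its log2 intensities were 9.14, 9.21 and 10.19 in SA and 10.17, 9.55, 10.94 and 10.95 in NI birds, a log2 difference of -0.89 (limma adjusted p = 0.434, standard error 0.37). The male SA bird, number 3, lay within the NI range. The male NI bird, number 4, was the highest of all, barely above the female NI bird 3. With sex as a covariate the log2 difference was -0.96 (limma adjusted p = 0.261).

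AMACR and HSD17B4 were the only members on chromosome Z among the 32 that a gene table of the king penguin assembly bAptPat1 lists. Their mean log2 intensities in the 2 males and 5 females were 10.57 and 9.80 for AMACR, and 10.92 and 10.17 for HSD17B4. HSD17B4, which carries out the middle steps of beta-oxidation of branched chains, lay at 10.30, 10.01 and 11.34 in SA and at 9.44, 10.19, 10.92 and 10.50 in NI birds. In each group the spread was wide, and the SA minus NI difference was 0.29 with a 95% confidence interval of -0.56 to 1.14.

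The oxidases of branched chains, ACOX2 and ACOX3, had log2 differences of -0.16 and 0.20. EHHADH, the other bifunctional enzyme, lay at -0.17, the thiolase ACAA1 at 0.09 and SCP2, a thiolase and lipid carrier, at -0.06. The intervals of EHHADH (-0.46 to 0.12) and ACOX2 (-0.40 to 0.09) were narrow, while that of ACOX3 ran to 0.90 on the side of SA.

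Alpha-oxidation removes a single carbon from phytanic acid, a branched fatty acid abundant in marine food. PHYH, which catalyses its first reaction, lay at 12.74, 11.84 and 11.99 in SA and at 11.53, 11.37, 11.26 and 11.78 in NI birds. All SA birds were higher, although SA bird 2 exceeded NI bird 4 by little and SA bird 1 stood apart. The means were 12.19 ± 0.484 (SD, n = 3) in SA and 11.49 ± 0.229 (SD, n = 4) in NI, a log2 difference of 0.71 (standard error 0.22, 95% confidence interval 0.21 to 1.20, limma adjusted p = 0.251), and the exact two-sided permutation test gave p = 0.0286. HACL1, the lyase of the same pathway, lay at -0.11 (95% confidence interval -0.37 to 0.16).

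GNPAT and AGPS catalyse the first reactions of ether phospholipid synthesis. By the probe sets analysed, both had higher values in all SA birds than in all NI birds without passing the limma test. GNPAT lay at 10.41, 10.19 and 10.10 in SA and at 9.48, 9.90, 9.85 and 9.23 in NI birds. Its log2 difference was 0.62 (standard error 0.18, 95% confidence interval 0.22 to 1.02, limma adjusted p = 0.206), the smallest adjusted p among the 31 genes that were not called. AGPS lay at 9.29, 9.24 and 9.35 in SA and at 9.19, 9.18, 9.18 and 9.21 in NI birds. The groups did not overlap, but the log2 difference was only 0.10 (95% confidence interval -0.12 to 0.32, limma adjusted p = 0.812), since limma moves the small SDs of this gene towards that of all genes. Its other probe set lay at -0.19, with overlapping groups. In humans PHYH and AGPS are among the proteins that enter the organelle through PEX7. A link between their values and that of PEX7 was not tested.

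Acyl groups leave the organelle as carnitine esters. CROT, which acts on medium chains, lay at 10.35, 9.98 and 10.74 in SA and at 9.24, 10.22, 9.63 and 9.37 in NI birds. Only NI bird 2 reached into the SA range. The log2 difference was 0.74, the largest positive one of the 33 genes (standard error 0.25, 95% confidence interval 0.18 to 1.30, limma adjusted p = 0.303). CRAT, the carnitine acetyltransferase of peroxisomes and mitochondria, lay at -0.24 by its brightest probe set. DDO, an oxidase of D-aspartate, lay at -0.18, and PECR, a reductase of enoyl-CoA with a dim probe set, at 0.22.

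**Figure D3:**
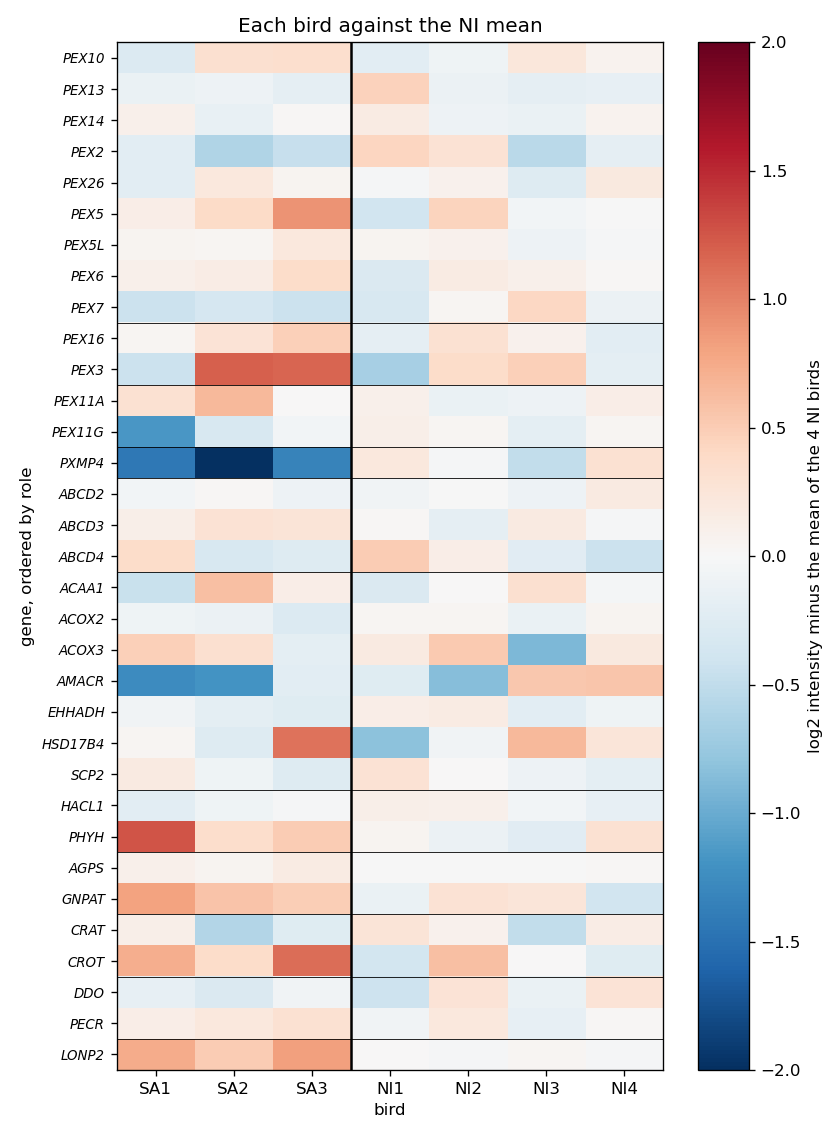
Log2 intensity of each peroxisomal gene (rows, by role) in each bird (columns, the 3 SA birds left of the 4 NI birds) minus the mean of the 4 NI birds, in red where higher and blue where lower. PXMP4 is blue and LONP2 red in all 3 SA birds, while PEX3 and HSD17B4 vary within both groups.

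No bird stood apart over the whole set. The median deviation of the 33 genes from their mean over the 7 birds was -0.02, 0.01 and 0.09 in SA birds 1 to 3, and -0.05, 0.08, -0.08 and -0.01 in NI birds 1 to 4. SA bird 3 was the highest bird in 10 genes and NI bird 1 in 8.

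Of the 33 genes, 19 had more than 1 probe set, and these did not all move together. Each probe set reads the transcript through its single retained probe, and where these probes lie was not checked. Of the 29 other probe sets none passed the test (limma, 4 at an unadjusted p under 0.05), and 17 had the sign of the brightest one. In 8 of the 19 genes all probe sets had the same sign, and in 9 they differed by more than 0.5 log2.

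PXMP4 differed most between its probe sets. The other one gave log2 intensities of 9.91, 9.67 and 9.77 in SA and 9.92, 9.71, 9.72 and 9.70 in NI birds, a log2 difference of 0.02 (limma adjusted p = 0.983, standard error 0.11), with overlapping groups. The probe set that fell is annotated on the array as reading several transcripts of the gene, by its suffix _a_at. The gap between both probe sets, bright minus other, was -0.99 to -0.35 in SA and 0.53 to 1.35 in NI birds (exact two-sided permutation test, p = 0.0286). Of 29 such pairs compared in the 19 genes, this was the only one to reach the smallest possible p. Chance brings about 1 in 35 pairs to that p, so 1 among 29 does not set PXMP4 apart. The choice of the bright probe set through the NI group also favours such a gap, so this p is no support for it.

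LONP2 had 3 probe sets. The second brightest lay at 8.87, 8.42 and 7.92 in SA and at 7.93, 8.19, 8.84 and 8.06 in NI birds, a log2 difference of 0.15 in overlapping groups. The dimmest, at a mean near the lower end of the scale, lay at 7.15, 6.83 and 6.64 in SA and at 7.69, 7.83, 6.90 and 7.18 in NI birds. Its log2 difference was -0.52, opposite to the brightest (limma unadjusted p = 0.0482, adjusted p = 0.472). The gap between the brightest and the dimmest gave p = 0.0571 and that between the brightest and the second p = 0.229 (exact two-sided permutation tests). The brightest probe set carries the suffix _s_at, given to probes that match more than 1 transcript, as do the brightest ones of 9 of the 33 genes in all, and whether another transcript gave signal was not tested.

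Among the genes not called, the probe sets of CRAT and DDO differed in sign. In both genes the second probe set was the brighter one in the SA mean. The second probe set of CRAT lay at 10.76, 11.29 and 10.74 in SA and at 10.16, 10.41, 10.47 and 10.10 in NI birds. All SA birds were higher, with a log2 difference of 0.65 (limma adjusted p = 0.158, standard error 0.17), beside -0.24 for the brightest. In DDO the second probe set gave 0.67 (limma adjusted p = 0.214) beside -0.18. For PHYH the second gave -0.10 beside 0.71, and for AMACR -0.02 beside -0.89.

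**Figure D4:**
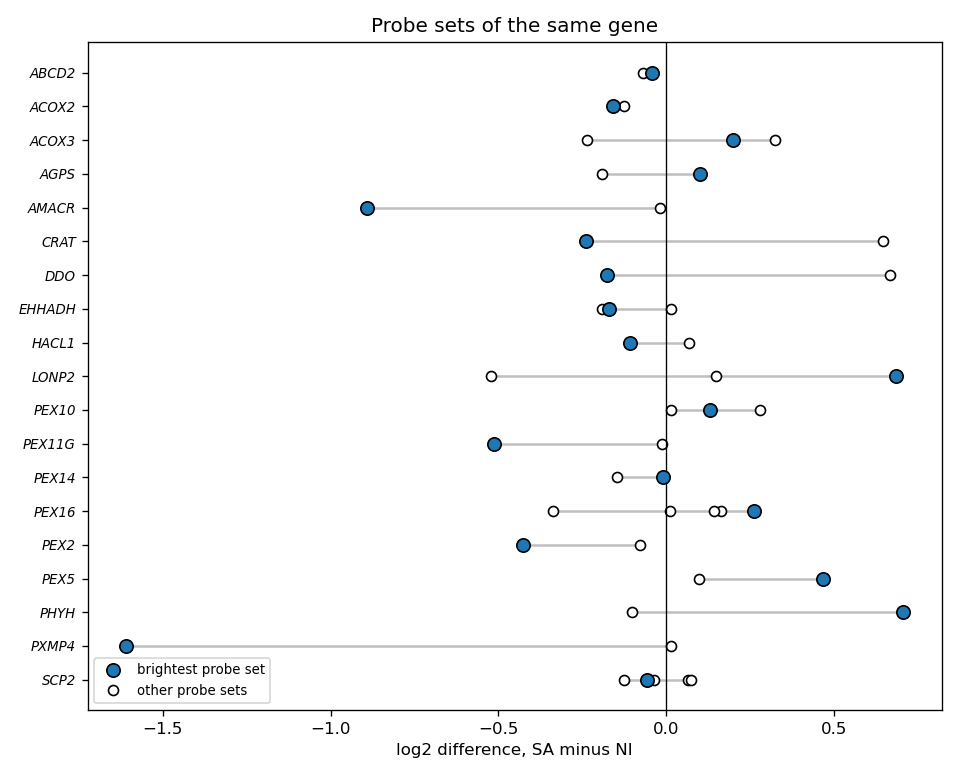
Log2 difference (x axis, SA minus NI) of every probe set of the 19 peroxisomal genes with more than 1, with the brightest as a filled and the others as open points, joined by a line within each gene. The probe sets of PXMP4 lie at -1.61 and 0.02 and those of LONP2 at 0.69, 0.15 and -0.52.

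A further 63 genes, of the peroxisome or listed as linked to it, were measured. Among them were the enzymes against peroxide, the acyl-CoA synthetases, the fission factors and the PPAR regulators. The list also held genes outside the organelle, such as VIM and the mitochondrial ECI1, so its counts are not of peroxisomal genes alone. None of the 63 passed the test at an adjusted p under 0.10 from limma, and 3 were higher and 6 lower at an unadjusted p under 0.05. The median log2 difference was -0.02. No SA bird overlapped an NI bird in 4 genes that lay higher and 4 that lay lower, 6.35% of the 63 in each direction and near the shares of all genes. The smallest p was that of SLC25A17, the carrier of coenzyme A and other cofactors in the peroxisomal membrane. It lay at 7.75, 8.23 and 8.88 in SA and at 9.31, 10.74, 9.56 and 9.62 in NI birds, a log2 difference of -1.52 (limma adjusted p = 0.123, standard error 0.35). All SA birds were lower.

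PPARGC1A, the coactivator PGC-1 alpha that drives mitochondrial and peroxisomal gene programmes, lay at 9.94, 9.61 and 10.12 in SA and at 10.94, 11.79, 10.74 and 10.17 in NI birds (log2 difference -1.02, limma adjusted p = 0.255). ECI1, a mitochondrial enoyl-CoA isomerase, lay at 0.42 (limma adjusted p = 0.275). VIM, vimentin, an intermediate filament of fibroblasts rather than a gene of the organelle, lay at -0.85 (limma adjusted p = 0.176). Of the 8 fibroblast markers given above, 2 were called lower, and a link between VIM and these markers was not tested.

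**Figure D5:**
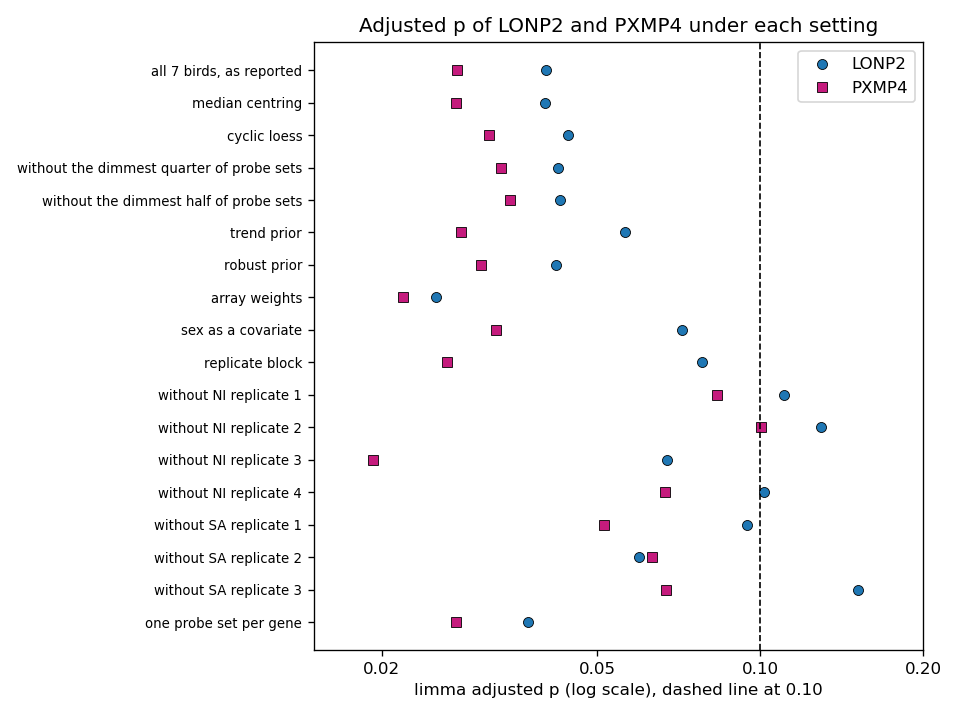
Limma adjusted p (x axis, log scale, dashed line at the threshold of 0.10) of LONP2 (blue circles) and PXMP4 (pink squares) with all birds and under each other setting. LONP2 lies right of the line in 4 of the fits without 1 bird, up to 0.151, and PXMP4 only without NI bird 2, at 0.1004.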

How the data were processed

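RNA from pectoralis biopsies of 3 SA and 4 NI king penguins was hybridized to Affymetrix GeneChip Chicken Genome Arrays, 1 per bird. The authors deposited 1 table of log2 intensities, 36897 probe sets by 7 arrays. To make these log2 values the authors dropped mismatch probes and probes that no array showed above background, chose per probe set the probe ranked brightest across arrays (MAXRS) and quantile normalized. The submitters' notes name limma without a version. No genome build is involved. Probe sets were named from the platform annotation (26108 with 1 symbol, 171 with several, left unnamed, and 10618 with none).

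Differences were computed from these values with limma 3.58.1 in R 4.3.3 (lmFit and eBayes, 5 degrees of freedom between birds, 4.34 from the prior) over all 36897 probe sets, with Benjamini-Hochberg adjustment, and tested on simulated data with known changes. The number of arrays limits the precision. Members and lists were chosen with earlier results of these data known. Genes are named where called, without overlap, or with the 3 smallest p of their role, and of the further genes the 4 with the smallest p. Comparisons between probe sets of 1 gene, and the other genes given values, were chosen after their values were seen. Some genes of these families are not reported here. Alternatives were other normalizations, filters, priors and weights, a sex covariate, a replicate block, fits without 1 bird, a threshold of 0.05 and other choices of probe set.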

Additional observations from a re-analysis of the deposited data

Results flagged for a closer look

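In ACOX2, NI bird 3 lay at a log2 intensity of 9.86, apart from the other NI birds at 10.04 to 10.05, with a gap that was 0.927 of the range of that group, above the limit of Dixon's test. By the probe set analysed it was the only one of 27 named genes whose NI group held such a bird. Chance gives about 1 in 20, so 1 among 27 is near the number that chance gives. Outside these 27, PEX13 also exceeded the limit (0.903, NI bird 1 at 7.27). So did the other probe sets of PXMP4 (0.884) and PHYH (0.832) and, of the further genes, ACBD5 (0.920, NI bird 1 at 9.90). The SA group, with 3 birds, was not tested for such a bird.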

How the results depend on the processing

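The log2 differences of LONP2 and PXMP4 kept their sign under every alternative run on their probe sets, and both calls held in the 10 fits with other normalizations, filters, priors, array weights, covariates or features (limma adjusted p from 0.0252 to 0.0779 for LONP2 and from 0.0219 to 0.0345 for PXMP4). Leaving out 1 bird gave 0 to 1 members higher and 0 to 1 lower, and the median difference of the members lay between -0.053 (without NI bird 3) and 0.105. With the mean of all probe sets of a gene 0 members were higher, and with the second brightest probe set 0 were higher and 0 lower. With the replicate block 2 members were higher, LONP2 and PHYH (0.81, limma adjusted p = 0.0870), and 2 further genes passed, SLC25A17 and PPARGC1A (limma adjusted p = 0.0543 and 0.0854). The replicate numbers name different birds. Same-numbered birds deviated from their group means with correlations of 0.29, -0.03 and 0.17, and birds of different number with -0.37 to 0.31. For SA birds 1 and 3 the same-numbered NI bird gave the highest correlation, and for SA bird 2 it was NI bird 3. The labels do not say whether the numbers mark anything the birds shared, and this was not tested. NI bird 4 has no SA partner in the block, so that the differences equal those without this bird, ABCD2 at 0.017 among them. Without 1 bird ABCD2 ranged between -0.077 and 0.017, and ABCD4 between -0.286 and 0.103. The cause of the other changes was not tested. Of the 449 alternative values of the 27 named genes, 436 kept both sign and side of the threshold.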
